A study of Mus musculus with 20 samples.

Results

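The cytosolic ribosomal protein genes were followed here across mouse gastric organoids with and without p53. They were taken by symbol as every row named Rpl or Rps with a number and an optional letter or digit, with the stalk genes Rplp0, Rplp1 and Rplp2 and the small subunit gene Rpsa. That gave 84 of 24047 genes. Of these, 77 are canonical subunit genes and 7 are paralogs that are treated apart (Rps27l, Rpl22l1, Rpl7l1, Rps4l, Rpl39l, Rpl10l and Rpl3l). A filter on low counts left 76 canonical members and 4 paralogs for testing. Rpl26, a large subunit gene, was the canonical member left out.

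The samples were 20 messenger RNA libraries from 8 lines of gastric organoids, which are stem cell cultures of gastric epithelium, all on the BL/6 strain. Lines 300 and 1269 were WT and labelled not dysplastic, with 2 libraries each, and lines 565 and 752 were WT and labelled dysplastic, with 3 each. Of the p53 KO lines, 650 (in vivo KO) and 1270 (ex vivo KO) were not dysplastic, with 2 libraries each, and 794 and 801 (both in vivo KO) were dysplastic, with 3 each. All lines were grown in conditioned medium. The ex vivo KO is thus represented by a single line, and the labels do not name the allele, the Cre driver or the animal behind any line. Libraries with the same title number carry the same labels and are called libraries of one line.

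The cytosolic ribosome is built from a large 60S and a small 40S subunit, in which most proteins are present as a single copy. Its messenger RNAs share a pyrimidine tract at the start of the transcript, the TOP motif, through which their translation is tied to mTOR signalling. When ribosome assembly is disturbed, free Rpl5 and Rpl11 bind Mdm2, the ubiquitin ligase of p53, so p53 is stabilised. Rps27l, a copy of Rps27, is a direct p53 target gene.

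Depth and labels were checked first. Library totals ran from 5669521 to 16323270 counts. Levels are given as CPM, counts scaled to a common library size after TMM normalization. Trp53 ranged from 98.6 to 164 CPM over 10 WT libraries and from 4.43 to 32.9 over 10 KO libraries, without overlap. Epithelial genes summed to between 12672 and 20282 CPM per library, with 1 of 19 markers in the table, Atp4b of parietal cells, at 0 throughout. The keratin gene Krt19 had the highest median, 4168 CPM. Other markers were near the floor, with at most 0.805 CPM for Tff1 and 2.64 CPM for Atp4a. Fibroblast genes summed to at most 54.7 CPM, immune genes to 75.4 CPM and endothelial genes to 12.8 CPM. Among the immune genes, Cd68 reached 73.4 CPM, while Cd4 and Cd8a had no count. Smooth muscle genes ranged more widely, from 1.91 to 453 CPM. In bulk libraries such as these, fewer cells of one type and less RNA per cell cannot be told apart.

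The start regions of a few members are shown because the TOP motif is the sequence feature for which the family is known. Members with and without a match to it are also compared further on. The motif was searched as a C followed by at least 5 bases that are C or T, with the first C within 5 bases of the annotated start, on the sense strand only. Of the 84 members, 63 matched a RefSeq start on GRCm38.p6, 57 of them canonical. The windows are 30 bases 5′ to 3′ on the gene's strand, 10 before the start and 20 from it on, with the tract in capitals. Their coordinates are those of GRCm38.p6, while the counts were made on mm9. The first group carries the tract: Rpl27a (chr7:109519185-109519214, plus strand), Rpl13a (chr7:45128726-45128755, minus strand) and Rpl15 (chr14:18270967-18270996, minus strand) of the large subunit, Rps6 (chr4:86857348-86857377, minus strand) of the small subunit, and the paralog Rpl22l1 (chr3:28805498-28805527, plus strand).
Rpl27a: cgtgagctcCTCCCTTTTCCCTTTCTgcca
Rpl13a: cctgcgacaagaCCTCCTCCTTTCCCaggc
Rpl15: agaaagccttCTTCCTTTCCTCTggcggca
Rps6: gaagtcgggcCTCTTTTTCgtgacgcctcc
Rpl22l1: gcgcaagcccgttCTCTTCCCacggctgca

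The second group has no match and holds the members with the largest and the smallest difference between libraries of one line: Rpl41 (chr10:128549149-128549178, minus strand), Rpl9 (chr5:65391412-65391441, minus strand), Rpl4 (chr9:64173377-64173406, plus strand) and Rps4x (chrX:102189372-102189401, minus strand).
Rpl41: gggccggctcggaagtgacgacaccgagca
Rpl9: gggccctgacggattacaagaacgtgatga
Rpl4: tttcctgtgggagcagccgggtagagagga
Rps4x: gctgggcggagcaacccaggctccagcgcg

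A tract was found for 25 of the 57 canonical members, or 43.9%. The same search found one in 11.9% of the 27025 genes with a RefSeq start. Among genes for mitochondrial ribosomal proteins, which build a separate ribosome inside the organelle, it was present in 4 of 68. Of the 6 paralogs with a start, Rpl22l1 alone had one. No match says only that no such tract begins within 5 bases of the annotated start; a run of C and T can lie elsewhere in the window.

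Canonical members fell into 2 classes by level. For 73 of the 77, the mean over the 8 lines was at least 106 CPM. The highest were Rplp0, the base of the ribosomal stalk, at 2250 CPM, Rpl4, whose loop lines the peptide exit tunnel, at 1884 CPM, the stalk gene Rplp1 at 1701 CPM, Rps3, which lies at the mRNA entry channel, at 1610 CPM, Rpl7 at 1438 CPM and Rps12 at 1225 CPM. Per kilobase of GENCODE M21 transcript the order differed, with Rplp1 at 3410, Rps12 at 2480 and Rpl41 at 2063 CPM per kb.

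The other 4 members had almost no reads. The mean over lines was 2.41 CPM for Rpl34, 1.43 CPM for Rps27 and 0.974 CPM for Rpl30, and Rpl26 had no read in 19 of the 20 libraries. All 4 encode structural proteins of the same ribosome as the members above 106 CPM. Of the stretches of 50 bases in their transcripts, 98.6% were also present in another gene for Rps27, 71.3% for Rpl26, 50.6% for Rpl34 and 47.8% for Rpl30. Sharing was also high in abundant members, at 90.1% for the abundant Rps12 and 86.7% for Rpl9. Over the tested canonical members, Pearson's r of sharing with log10 CPM per kb was -0.07 across genes. No source used here states how shared reads were assigned in counting, and the level of members with copies is uncertain.

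Summed over the canonical members, the level differed widely between libraries of one line in most lines. In line 300 the sum was 40744 CPM in library 1 and 81339 CPM in library 2. In line 650 it was 36338 and 70930 CPM. In the lines with 3 libraries the first pair was close and the third stood above it. These were 37652, 37624 and 52521 CPM in line 565, and 39709, 35703 and 76402 CPM in line 752. In the KO lines they were 42232, 35973 and 111189 CPM in line 794, and 32997, 31710 and 71952 CPM in line 801. The remaining lines showed no such step, with 43063 and 38024 CPM in line 1269 and 37232 and 43763 CPM in line 1270. Thus in 6 of the 8 lines the last-numbered library was 1.40 to 2.84 times the mean of the earlier ones. In line 1270 it was 1.18 times as high, and in line 1269 it was lower, at 0.883 of the earlier one. As a share of all counts, the members took 3.39% to 4.54% in 14 libraries and 5.37% to 10.04% in these 6.

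**Figure D1:**
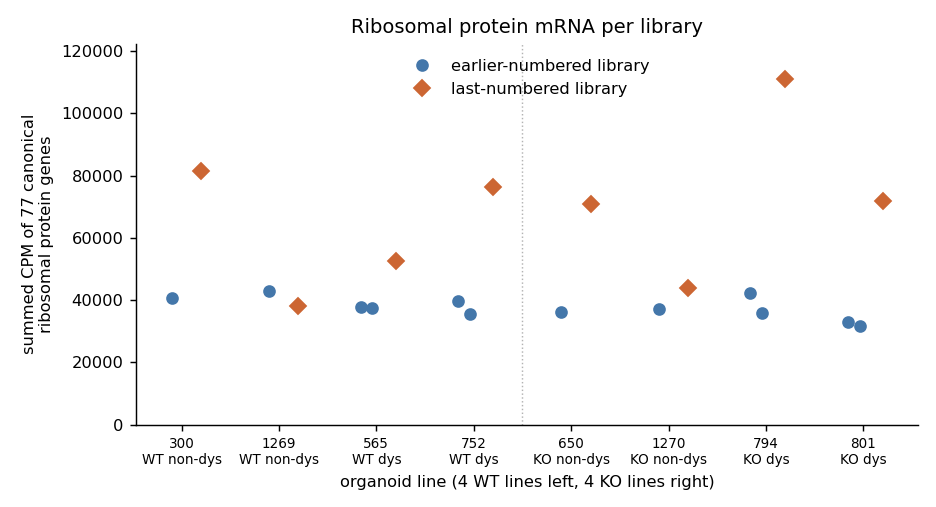
Summed CPM of the 77 canonical ribosomal protein genes (y axis) in each library, by organoid line (x axis). Circles are earlier-numbered libraries and diamonds the last-numbered library of each line; the diamonds of 6 lines lie between 52521 and 111189 CPM, all 12 circles between 31710 and 43063 CPM.

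The 12 earlier-numbered libraries ranged from 31710 to 43063 CPM with a median of 37428 CPM, and the 8 last-numbered ones from 38024 to 111189 CPM with a median of 71441 CPM. The ranges overlapped only through line 1269. In edgeR's quasi-likelihood test with line as a block, 76 of 76 canonical members passed an adjusted p of 0.05 as higher in the last-numbered library. This comparison, too, was chosen with earlier results of these data known, so its p-values are not those of a contrast set in advance. It also takes libraries as the unit, although the difference varied by line. The background for this count is wide, because 26.0% of the 13141 genes tested were also called higher, and 24.1% lower. With the lines of 2 libraries alone, which are the 4 non-dysplastic lines, edgeR called no member and no other gene. That comparison rests on fewer libraries. In it, 76 members were positive and 17 had an unadjusted p under 0.05. Shares over all genes are not given beside these counts, and members measured in the same lines are not independent. The counts are therefore not read as a result about the members. In the fit over all lines, the members' log2 fold changes ran from 0.19 to 1.46 with a median of 0.83, while the median of all genes tested was 0.02. The labels do not say what the number in a title stands for, so it is used here as a number only. When library 2 was set against library 1 within the lines of 3 libraries, a comparison chosen after the values were seen, no canonical member was higher, 2 were lower, and the median was -0.10.

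Among large subunit genes, Rpl41, which encodes the shortest ribosomal protein, differed most. Its level was 443 to 668 CPM with a median of 529 CPM in the earlier libraries and 547 to 4108 CPM with a median of 1612 CPM in the last-numbered ones, a log2 fold change of 1.46 ± 0.23 (SE). Rpl9 followed, with 456 to 639 CPM and a median of 529 CPM against 524 to 3024 CPM and a median of 1729 CPM, a log2 fold change of 1.43 ± 0.22. The highest value of both was in library 3 of line 794, and the lowest last-numbered value of both was in line 1269. Rpl17, near the tunnel exit, had a log2 fold change of 1.32 ± 0.22.

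At the other end, Rpl4 was 1560 to 2085 CPM in the earlier libraries and 1824 to 2231 CPM in the last-numbered ones, with medians of 1830 and 2036 CPM. Its log2 fold change of 0.19 ± 0.08 passed narrowly (adjusted p = 0.048 by edgeR with Benjamini-Hochberg adjustment), and lost the call without line 300, 565, 752, 650, 794 or 801 and under each other scaling of libraries or with no low-count filter, where it stayed positive. Rpl23, one of the proteins that can bind Mdm2, rose by 0.30 and Rpl29 by 0.37 on the log2 scale. The difference was therefore not one factor common to all members: in line 794, Rpl41 differed by 2.87 on the log2 scale and Rpl4 by 0.16.

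The 5S RNP genes lay near the family's median. Rpl5 was 395 to 534 CPM in the earlier libraries, with a median of 459 CPM, and 451 to 1900 CPM in the last-numbered ones, with a median of 968 CPM. Its log2 fold change was 0.99 ± 0.18. Rpl11 went from a range of 315 to 502 CPM with a median of 400 CPM to one of 405 to 1229 CPM with a median of 768 CPM, a log2 fold change of 0.87 ± 0.15. Both ranges overlapped only through the last-numbered libraries of lines 1269 and 1270.

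The median log2 fold change was 0.91 over 31 small subunit members and 0.73 over 45 large subunit members, a difference that was not tested. In the sums, the ratio of large to small subunit CPM was 1.42 to 1.48 in the other 14 libraries and 1.28 to 1.40 in the 6 high ones. Rps14, a protein of the decoding platform whose gene is haploinsufficient in human 5q- syndrome, rose most, by 1.37 ± 0.22. Rps3 was 960 to 1337 CPM in the earlier libraries, with a median of 1127 CPM, and 1189 to 5039 CPM in the last-numbered ones, with a median of 2881 CPM. Rps4x, the X-linked copy of Rps4, rose least, by 0.20 ± 0.07 (adjusted p = 0.021 by edgeR with Benjamini-Hochberg adjustment), and lost the call without line 300, 565, 752 or 801 and with scaling by library totals alone or no low-count filter.

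**Figure D2:**
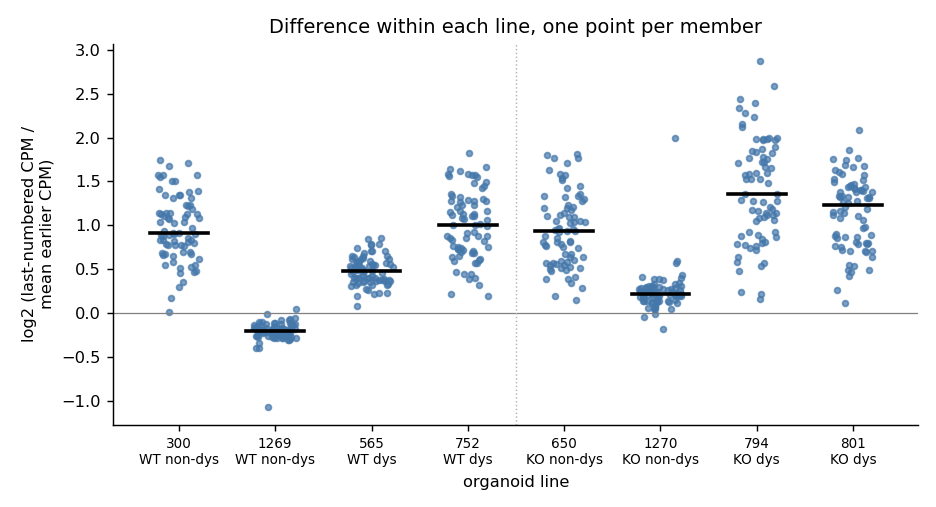
Difference between the last-numbered library and the mean of the earlier libraries of the same line, as log2 of the CPM ratio (y axis), for 76 canonical members in each line (x axis); bars are medians. All points lie above 0 in 6 lines, with medians from 0.49 in line 565 to 1.36 in line 794, while line 1269 has a median of -0.20.

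By line, the median difference over the 76 members was 0.92 in line 300, 0.49 in 565, 1.01 in 752, 0.93 in 650, 1.36 in 794 and 1.23 in 801. In these 6 lines the last-numbered library was above every earlier one for 76 of 76 members. In line 1270 it was above for 73 members, with a median of 0.21, and in line 1269 for 1 member, Rplp0, with a median of -0.20. In lines 300, 650, 1269 and 1270 there was a single earlier library to exceed. These counts by line were not made over all genes, so they are not read as a trait of the members. Both genotypes and both dysplasia classes are among the 6 lines. Rpl4 had the smallest difference in lines 565, 752, 650 and 794, and Rpl9 the largest in lines 300, 565 and 752.

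Other gene groups moved with the members in the same comparison. Of 77 genes for mitochondrial ribosomal proteins, 72 rose and none fell, with a median log2 fold change of 0.63. Of 73 respiratory chain subunit genes tested, 65 rose and none fell, with a median of 0.73. Of 19 further genes of the translation machinery known for TOP messenger RNAs, 13 rose and 3 fell, with a median of 0.43. Of 63 ribosome biogenesis genes, which make and assemble pre-ribosomes in the nucleolus, 19 rose and 16 fell, with a median of -0.02, shares near the 26.0% and 24.1% of all genes. RNA polymerase I genes counted 11 rising and 3 falling of 19, and initiation factors 13 and 8 of 31. These lists were chosen with earlier results of these data known.

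Transcript length moved with the difference in the rest of the transcriptome. Leaving out both organelle groups, other genes with a transcript under 750 bases had a median log2 fold change of 0.61, and 62.5% of them rose. The median was 0.20 from 1500 to under 2000 bases and -0.38 at 5000 bases or more, where 3.95% rose. Canonical members are short, with a median transcript of 716 bases against 2808.5 for other genes. In the same length class of under 750 bases the 38 members had a median of 0.91, and the 21 members from 750 to under 1000 bases 0.64, against 0.56 for other genes of that length. The 11 members from 1000 to under 1500 bases had a median of 0.69 against 0.38, and the 4 from 1500 to under 2000 bases 0.96 against 0.20. Those 4 ranged widely, with Rpl4 at 0.19, Rpsa at 0.75, Rps3 at 1.16 and Rps24 at 1.17. Each length is that of a single annotated transcript per gene, the shortest that qualified, and need not be that of the transcript expressed here. A class can therefore hold members whose expressed transcript is of another length. Pearson's r with log10 length was -0.57 across 11910 other genes and -0.18 across the 76 members, values that share the same 20 libraries. The part of transcript length, RNA quality or library preparation in the difference was not tested.

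**Figure D3:**
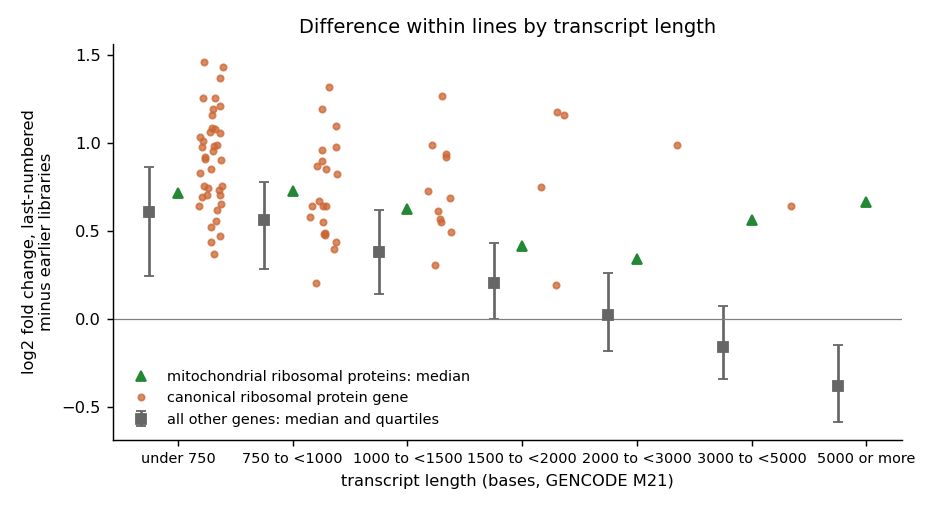
Log2 fold change of last-numbered minus earlier libraries (y axis) by transcript length class in bases (x axis). Squares with bars are medians and quartiles of all other genes, triangles medians of mitochondrial ribosomal protein genes and circles single canonical members; other genes go from 0.61 under 750 bases to -0.38 at 5000 or more.

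Members were also split by the TOP tract. The median log2 fold change was 0.82 over the 25 members with a tract and 0.91 over the 31 tested members without one. Without one means only that no match began within 5 bases of the annotated start. The split is therefore not read as one of TOP and non-TOP genes. Spearman's rho of the log2 fold change with mean CPM was 0.07 across the 76 members. Of the markers listed for other cell types, 2 of 4 smooth muscle genes and 1 of 5 fibroblast genes tested rose in the last-numbered libraries. In the same test 2 of 4 endothelial genes fell, while 1 of 17 epithelial genes rose and 4 fell. Which cells these transcripts came from was not tested. Counts this small are not read against the 26.0% and 24.1% of all genes. Summed immune genes were 6.30 to 44.4 CPM in earlier and 12.4 to 75.4 CPM in last-numbered libraries, and smooth muscle genes 1.91 to 161 and 2.60 to 453 CPM. Their part in the members' difference was not tested.

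Genotype was then compared over lines, with libraries of a line summed, so that 4 WT lines met 4 KO lines. The canonical sum was 60576 CPM in line 300, 40360 in 1269, 43021 in 565 and 47450 in 752. In the KO lines it was 50872 CPM in 650, 40235 in 1270, 57356 in 794 and 40467 in 801. The groups overlapped over nearly their whole range, with means of 47852 ± 8973 CPM in WT and 47232 ± 8376 CPM in KO (SD, n = 4 each).

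No canonical member passed the test between genotypes. Of 76, 0 were called, where edgeR called 0% of the 13476 genes tested, and none had an unadjusted p under 0.05. Over all genes, 543 had one, and DESeq2 called 73 genes, no canonical member among them. The median log2 fold change of the members was -0.02, 31 of them positive and 45 negative, against -0.01 for all genes. The fold changes of 50% of the members lay between -0.07 and 0.04. Rpl5 differed by 0.05 ± 0.25 and Rpl11 by 0.00 ± 0.18 (log2, SE).

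Leaving out the last-numbered libraries, a choice made with their level known, narrowed the spread between lines. The median SD of a member's log2 CPM over the 8 lines fell from 0.24 to 0.13. Within lines, over single libraries, it was 0.60 with all libraries, above the spread between lines for 76 of 76 members. The spread between lines is that of summed libraries, and summing evens out differences between libraries. These are unlike measures, so 76 of 76 is not read as lines differing less than libraries. Among the earlier libraries of the lines with 3, the within-line SD was 0.11, against 0.13 between all 8 lines. That pair is unlike too, because it covers different lines. Line sums then lay between 37787 and 42055 CPM in WT and between 33120 and 40217 CPM in KO, still overlapping, with means of 39684 ± 2089 and 36941 ± 2981 CPM (SD, n = 4 each). The median log2 fold change was -0.10, with 66 of 76 members negative, against a median of 0.01 for all genes, and again no member was called. Because the members were measured in the same lines, their signs are not independent, and 66 of 76 is not read as a decrease in KO.

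The overlap of single members between genotypes was also counted. With all libraries, Rps4x was the 1 canonical member whose 4 KO lines all lay below the 4 WT lines, where 1.46% of the genes tested did so, and no member had all KO lines above, where 0.920% did. Rps4x was 799.5, 723, 712 and 716 CPM in lines 300, 1269, 565 and 752, and 639, 653, 647 and 594 CPM in lines 650, 1270, 794 and 801. Its log2 fold change of -0.22 ± 0.11 was not called (adjusted p = 1.00 by edgeR's quasi-likelihood test). Without the last-numbered libraries, 8 members (Rpl3, Rpl7, Rpl7a, Rpl10a, Rpl15, Rps4x, Rps6 and Rps19) had all KO lines below, against 1.46% of genes, and none had all KO lines above, against 1.34%. None of the 8 was called.

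**Figure D4:**
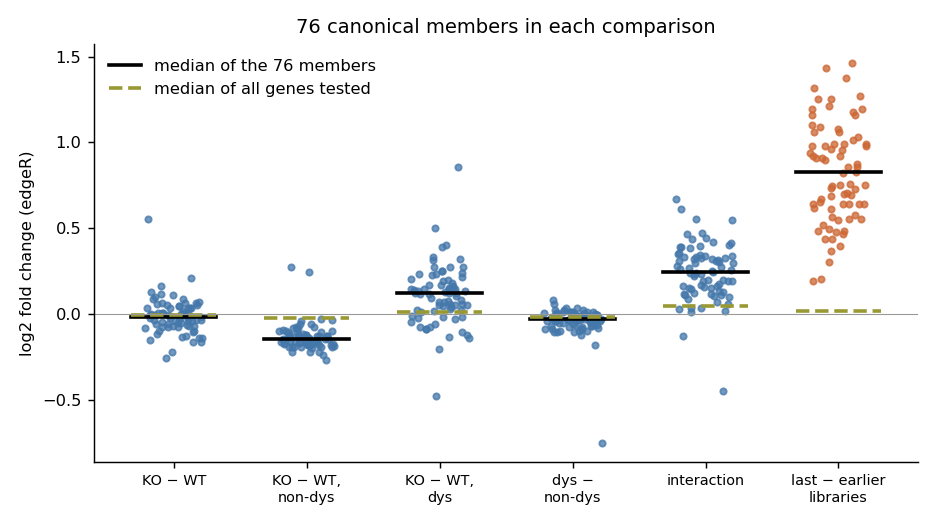
Log2 fold change (y axis) of the 76 canonical members in 5 comparisons of lines and in the comparison of last-numbered with earlier libraries (x axis). Solid bars are the members' medians and dashed bars the medians of all genes tested; the members' medians are between -0.15 and 0.25 in the line comparisons and 0.83 in the last one.

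Within the dysplasia classes, the direction of the members differed without a call. In non-dysplastic lines, 74 of 76 members were lower in KO, with a median of -0.15, and in dysplastic lines 59 were higher, with a median of 0.12. Of all genes tested, 45.5% were positive in the non-dysplastic lines and 52.5% in the dysplastic lines. Signs of members measured in the same lines are not independent of each other. Each rests on 2 lines per genotype, and edgeR called 0% of all genes in both. The interaction of genotype and dysplasia, which tests the difference between the classes, was positive for 74 members with a median of 0.25, and for 55.4% of all genes. None was called (0% of genes). Among all genes, 257 had an unadjusted p under 0.05 in the non-dysplastic lines, 588 in the dysplastic lines and 241 for the interaction, and DESeq2 called 6, 69 and 0 genes, no canonical member among them. The signs changed without single lines: without line 300 the median in non-dysplastic lines was 0.19 and without line 1270 it was 0.03. Without line 794 the median in dysplastic lines was -0.16 and that of the interaction -0.02. Without the last-numbered libraries, the medians were -0.15, -0.04 and 0.11.

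Between dysplastic and non-dysplastic lines, no canonical member passed the test either. The sums were 47073 ± 7437 CPM and 48011 ± 9748 CPM (SD, n = 4 each), with overlapping ranges. The median log2 fold change was -0.03, with 20 members positive and 56 negative, where 46.2% of all genes were positive. Without the last-numbered libraries it was -0.08, with 3 positive and 73 negative, against a median of -0.003 for all genes. These signs are not independent of each other. No member was called, as for 0% of all genes, none had an unadjusted p under 0.05, and 797 of all genes had one, while DESeq2 called 153 genes, again no canonical member. Library number and dysplasia are tied, because a library numbered 3 exists only in dysplastic lines. Without replicate 2, the last-numbered library of the non-dysplastic lines, the median was 0.39, and without replicate 3, that of the dysplastic lines, it was -0.38. No member had all 4 dysplastic lines below the others, where 1.31% of genes did, or above them, where 1.74% did.

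In related gene groups, edgeR called 0 genes between genotypes, as for 0% of all genes tested. Median log2 fold changes of KO minus WT were -0.09 over 19 TOP-type translation genes, -0.09 over 63 biogenesis genes, -0.04 over 31 initiation factors, -0.07 over 19 RNA polymerase I genes and -0.03 over 77 mitochondrial ribosomal protein genes. The list for the 5S RNP and Mdm2 axis holds the canonical members Rpl5 and Rpl11, its 2 positive genes, as well as Trp53. It is therefore not separate from the family or from the knockout. The median over its 12 genes was -0.13. Among them, Mdm2, a p53 target and its inhibitor, had a log2 fold change of -1.11 ± 0.28, Cdkn1a, the p53 target that encodes p21, one of -1.19 ± 0.56, and Trp53 itself one of -3.17 ± 0.60. By edgeR's test these were not called either (adjusted p of 0.986 for Mdm2, 1.00 for Cdkn1a and 0.739 for Trp53). Since this fit did not call Trp53, the gene knocked out, a lack of calls in it does not show a lack of difference.

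Among the paralogs, the p53 target Rps27l was the 1 tested gene with no overlap between genotypes. It was 227, 190, 172 and 169 CPM in WT lines 300, 1269, 565 and 752, and 161, 90.9, 135 and 104 CPM in KO lines 650, 1270, 794 and 801. All KO lines lay below all WT lines, as for 1.46% of the genes tested. The log2 fold change was -0.62 ± 0.20, with an unadjusted p of 0.0186 and an adjusted p of 1.00 by edgeR, so it was not called over all genes. Its parent Rps27 lay between 0.987 and 2.36 CPM over all lines. Trp53 in the same KO lines was 26.9, 4.99, 6.92 and 22.2 CPM.

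The values by library were as follows. In the earlier-numbered libraries it was 112 to 182 CPM in WT and 70.3 to 89.6 CPM in KO, without overlap. In the last-numbered ones it was 201 to 329 CPM in WT and 102, 184, 259 and 310 CPM in KO lines 1270, 801, 650 and 794, which overlap the WT range. Within lines it rose by 1.15 ± 0.16 on the log2 scale (adjusted p of 0.000445 by edgeR) and was higher in the last-numbered library of 8 of 8 lines, line 1269 included, where the canonical median was lower. Leaving out the last-numbered libraries gave a genotype difference of -0.78 ± 0.13 with an adjusted p of 0.417. Set against the family, a ratio chosen after the values were seen, Rps27l amounted to 30.2 to 52.7 per 10000 CPM of canonical members in WT libraries and to 19.0 to 36.5 in KO libraries. The KO value that reached into the WT range was that of library 2 of line 650; the other 9 were at most 27.9.

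**Figure D5:**
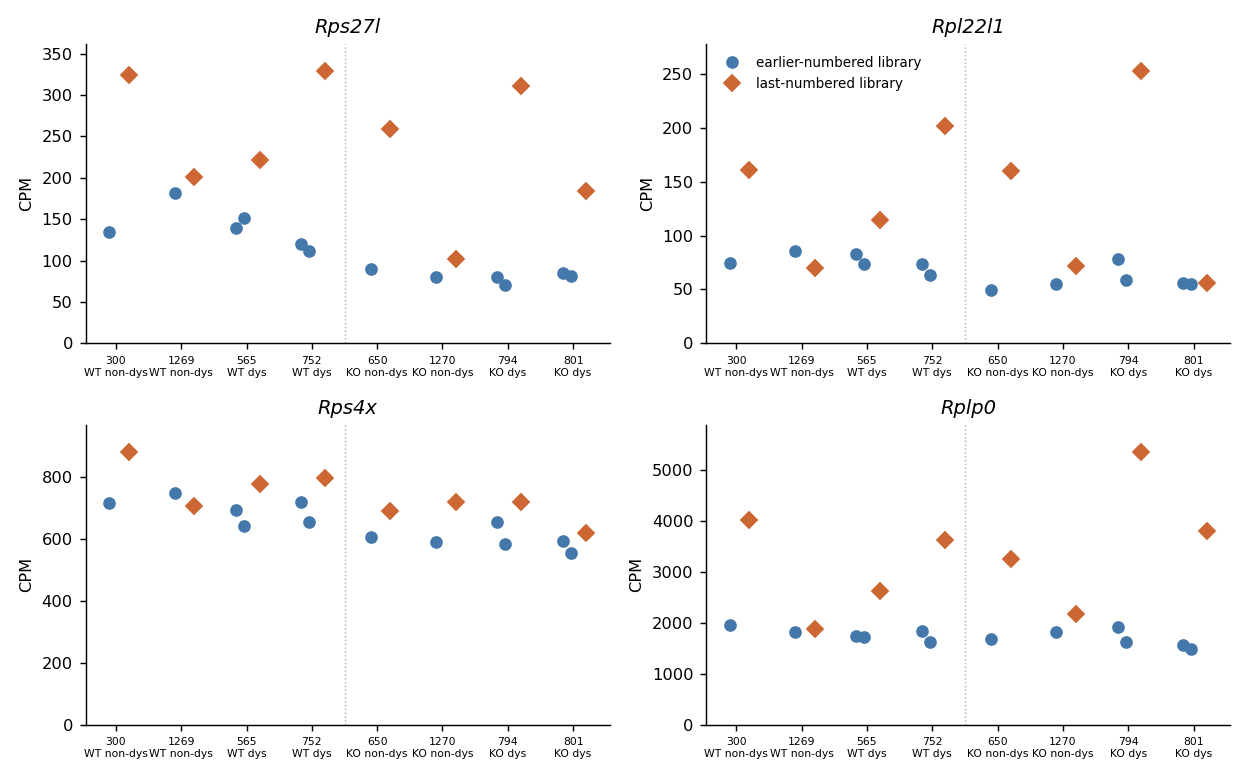
CPM (y axes) of the paralogs Rps27l and Rpl22l1 and of the canonical Rps4x and Rplp0 in each library, by organoid line (x axes), 4 WT lines to the left of the dotted line and 4 KO lines to the right. Circles are earlier-numbered and diamonds last-numbered libraries; the Rps27l circles are at least 112 CPM in WT and at most 89.6 CPM in KO, whereas the Rplp0 circles of both genotypes lie between 1489 and 1961 CPM.

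Rpl22l1, which can replace its parent Rpl22 in the large subunit, did not follow the family in every line. In the last-numbered libraries it was 161 CPM in line 300, 202 in 752, 160 in 650 and 253 in 794, against 49.4 to 85.5 CPM in all earlier libraries. In line 801, however, it was 56.4, 54.8 and 56.4 CPM in libraries 1, 2 and 3, while the parent Rpl22 was 263, 277 and 534 CPM in the same libraries. The log2 fold change of Rpl22l1 within lines was 0.95 ± 0.20 and that between genotypes -0.23 ± 0.27, which was not called. Without the last-numbered libraries the genotype value was -0.40 ± 0.11, again not called (adjusted p of 0.808 by edgeR), and leaving out single replicates or lines moved it from -0.53 to -0.02.

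Rpl7l1, a relative of Rpl7, was 168 to 198 CPM over the lines, and its log2 fold changes were 0.40 ± 0.10 within lines and -0.10 ± 0.10 between genotypes. Rps4l ranged from 2.85 to 12.0 CPM and rose by 0.64 ± 0.18 within lines. Rpl39l had at most 3 counts and Rpl10l at most 3 counts in any library, and Rpl3l, the muscle form of Rpl3, had none. Their canonical relatives Rpl39 (153 CPM), Rpl10 (590 CPM) and Rpl3 (853 CPM) were all well expressed. Outside the rule by spelling, the fusion gene Fau, which encodes a small subunit protein, rose within lines by 1.16 ± 0.18 on the log2 scale.

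Over lines, the members with the least spread were Rpl4, Rpl6, Rps2 and Rps4x, and those with the most were Rpl30, Rpl41, Rpl17 and Rps14. The SD of log2 CPM over the 8 lines ran from 0.07 for Rpl4 to 0.53 for Rpl30. Rpl30 lies near 1 CPM, so its spread includes counting error. Rpl41 was 580 to 1457 CPM over the lines, with its highest values in lines 300, 650 and 794, and Rpl4 was 1736 to 2054 CPM. Rps27a, the ubiquitin fusion gene of the small subunit, was 359 to 621 CPM, and Rpl36a 192 to 299.7 CPM, both highest in line 300.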

How the data were processed

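The deposited table holds raw counts of reads per gene symbol for 20 libraries, whole numbers with no normalization. The submitters' processing notes name bcl2fastq, STAR 2.5 and mm9, a mouse build. For the annotation, the counter and the use of strand, nothing is given in the sources used here. Per the labels' protocols, libraries were made with an mRNA kit from 100 ng of total RNA.

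Counts of libraries of one line were summed, filtered with filterByExpr (13476 genes), TMM-scaled and fitted by a mean for each genotype and dysplasia combination, with 4 residual degrees of freedom. The last-numbered library of each line was compared with the others in a fit over libraries with line as a block (13141 genes). EdgeR 4.0.16's robust quasi-likelihood test in R 4.3.3 was used, with Benjamini-Hochberg adjustment over all genes tested and a threshold of 0.05. Limma 3.58.1 and DESeq2 1.42.0 served as alternatives. An SE is the log2 fold change divided by the square root of F. CPM are TMM-scaled. The fits were also run on simulated counts, drawn for the fit of lines without any difference of the last-numbered libraries. That run therefore does not show how the fit of lines performs on these libraries. Whether lines are separate animals is not in the labels, and p-values therefore measure the spread of these lines alone, possibly technical. Libraries of a line all differed by more than sampling noise (chi-square per degree of freedom of at least 6.11). At the smallest total of 5669521 counts, 1 CPM is fewer than 6 counts.

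Transcript lengths and shared stretches came from GENCODE M21 (83 of 84 members matched, by symbol), starts from RefSeq on GRCm38.p6. Members, lists and the last-numbered comparison were chosen with earlier results of these data known. The rule for names took canonical members with the 6 highest and 3 lowest levels, the 4 largest and 4 smallest spreads over lines and differences within lines, up to 4 members each way with an unadjusted p under 0.05 and an average log2 CPM above 2 in a comparison of lines (none), members with known roles or paralogs, all paralogs with a count, and Trp53; other members are named as examples chosen after their values were seen.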

Additional observations from a re-analysis of the deposited data

Results flagged for a closer look

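In each labelled group of 4 to 6 libraries, the sample farthest from its nearest neighbour was compared with Dixon's critical value at 95%. Chance exceeds it in about 1 of 20 groups of independent samples. Libraries of one line are not independent, so that rate does not hold here. In the WT non-dysplastic libraries, the canonical sum of library 2 of line 300 (81339 CPM) stood apart from the other 3 (38024 to 43063 CPM), the gap being 0.884 of the range. In the KO dysplastic libraries, Rpl22l1 in library 3 of line 794 (253 CPM) stood apart from the other 5 (54.8 to 78.5 CPM), with a gap of 0.880 of the range. In the WT dysplastic libraries, Rpl22l1 in library 3 of line 752 (202 CPM) stood apart from 63.8 to 114 CPM, with a gap of 0.635 of the range. Of 76 canonical members taken singly, 46 had library 2 of line 300 apart at the top, 23 library 3 of line 752 and 14 library 3 of line 794. Over lines, 4 members stood apart in WT, all highest in line 300, and 0 in KO. The same counts were not made over all genes, so they are not read as a trait of the members.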

How the results depend on the processing

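Every alternative run left 0 canonical members called in the 5 comparisons of lines. Over all genes, where edgeR called 0, limma-voom over libraries called 63 for KO minus WT (DESeq2 73; 40 with a term for the last-numbered library), 5 within non-dysplastic lines (DESeq2 6), 101 within dysplastic lines (DESeq2 69) and 138 for dysplasia (DESeq2 153). EdgeR also called 138 for dysplasia without replicate 2. Deviations of same-numbered libraries from their group means correlated from -0.71 to 0.68, over 0.1 in 28 of 54 pairs. These deviations still hold the difference of the last-numbered libraries, so they cannot decide whether the title numbers pair libraries. With the replicate number as a replicate block, limma-voom called 50 genes for KO minus WT and 101 for dysplasia, no canonical member among them, and the dysplasia median became -0.37. Leaving out replicates or lines moved the medians from -0.15 to 0.14 for KO minus WT, from -0.35 to 0.19 within non-dysplastic and -0.16 to 0.33 within dysplastic lines, from -0.38 (without replicate 3) to 0.39 (without replicate 2) for dysplasia and from -0.055 (without line 300) to 0.46 for the interaction.

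Within lines, 73 to 76 members were called under other scalings, filters and tools and without any line, with medians from 0.71 to 0.92 without a line. No member was called with only the lines of 2 libraries (0 genes called of 12550), or for library 2 against 1 without replicate 3 (0 called, median 0.19). Library 2 against 1 in lines of 3 libraries called 2 members lower (median -0.10), with Rps27l at -0.048, Rpl22l1 at -0.21, Rpl41 at -0.15, Rpl9 at -0.15, Rpl4 at -0.029 and Rps4x at -0.12, that is, with reversed sign. The highest over the lowest library sum was 3.51, and 2.96 to 3.57 under the alternatives.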
